A study of Mus musculus with 16 samples.

Results

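Samsn1, Ptp4a1, Pla2g3 and Tank are 4 of the 49585 mouse genes measured in CD45+ cells of bone marrow and spleen. They were chosen by their measured response to chemogenetic activation of brainstem neurons, which was larger in bone marrow than in spleen, so this response in each tissue and the difference between tissues are given here as a description, without a test. The choice names no threshold of size. All mice were Dbh-Cre mice of the C57BL/6J strain, labelled 12 week, and all received clozapine N-oxide (CNO), the ligand of the designer receptor. In the hM3Dq groups a Cre-dependent virus, AAV-DIO-hM3Dq-mCherry, had been placed on both sides of the ventrolateral medulla (VLM), and in the mCherry groups the virus was AAV-DIO-mCherry, which lacks the receptor. hM3Dq is a Gq-coupled receptor that excites the neurons carrying it, and Cre driven from Dbh, the gene of the enzyme that makes noradrenaline, limits it to catecholaminergic cells at the injection site. The receptor is therefore not checked by RNA of the CD45+ cells. CD45 marks leukocytes, and poly(A) RNA of these cells was sequenced 4 h after CNO. There were 4 libraries in each of the 4 groups, which the series calls biological replicates without saying whether marrow and spleen came from the same mice, so p-values measure the spread between these libraries. Libraries numbered 5 to 8 are hM3Dq and those numbered 1 to 4 are mCherry in both tissues, so anything else that followed these numbers cannot be told apart from the virus.

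The 4 genes act in different places of leukocyte signalling. Samsn1 encodes an SH3 and SAM domain adaptor of haematopoietic cells, induced when B cells are activated and known in mice to restrain them. Ptp4a1 encodes PRL-1, a prenylated phosphatase first found as an immediate early gene of regenerating rat liver, whose family binds the CNNM magnesium transport proteins. Pla2g3 encodes the secreted group III phospholipase A2, the mammalian relative of the bee venom enzyme, which releases fatty acids from phospholipids and is known in mice for a part in mast cell maturation. Tank encodes a TRAF-binding scaffold of the kinases TBK1 and IKK epsilon, which act in interferon induction, and in mice it restrains Toll-like receptor and NF-kB signalling.

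In build GRCm38, Samsn1 (ENSMUSG00000022876) lies at chr16:75858793-76022281 on the minus strand and Ptp4a1 (ENSMUSG00000026064) at chr1:30940302-30949309 on the minus strand. Pla2g3 (ENSMUSG00000034579) lies at chr11:3488284-3499350 on the plus strand and Tank (ENSMUSG00000064289) at chr2:61578585-61654171 on the plus strand. The genes are thus on 4 chromosomes. The annotation used here, GENCODE M21, lists a further model under the symbol Ptp4a1, which was not analysed here. RefSeq start sites in GRCm38.p6 were matched for 3 of the 4 genes, Pla2g3 being the exception. The 250 bases before a start are shown because Samsn1 and Ptp4a1 had alike profiles, and Tank is set beside them. Capitals mark matches, on either strand, to 11 short motifs that were chosen after these sequences had been seen. The windows are chr16:75909267-75909516 (minus strand) for Samsn1, chr1:30949756-30950005 (minus strand) for Ptp4a1, and chr2:61592847-61593096 and chr2:61578336-61578585 (plus strand) for a downstream and an upstream start of Tank. RefSeq gives 4 starts for Tank, and the 2 not shown lie 55 and 29 bases from those shown. The Samsn1 start lies inside the annotated gene, and the Ptp4a1 start lies upstream of the annotated gene.
Samsn1: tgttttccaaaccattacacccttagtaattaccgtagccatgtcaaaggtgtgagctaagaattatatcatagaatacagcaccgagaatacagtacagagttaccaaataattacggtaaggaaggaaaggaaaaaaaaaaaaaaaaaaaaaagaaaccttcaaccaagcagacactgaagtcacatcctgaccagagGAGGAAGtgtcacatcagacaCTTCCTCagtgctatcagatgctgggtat
Ptp4a1: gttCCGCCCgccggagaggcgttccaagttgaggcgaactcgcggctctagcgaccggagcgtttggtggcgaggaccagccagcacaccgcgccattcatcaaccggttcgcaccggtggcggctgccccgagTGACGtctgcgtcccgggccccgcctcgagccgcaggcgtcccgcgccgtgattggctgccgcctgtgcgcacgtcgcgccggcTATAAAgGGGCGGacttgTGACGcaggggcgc
Tank, downstream start: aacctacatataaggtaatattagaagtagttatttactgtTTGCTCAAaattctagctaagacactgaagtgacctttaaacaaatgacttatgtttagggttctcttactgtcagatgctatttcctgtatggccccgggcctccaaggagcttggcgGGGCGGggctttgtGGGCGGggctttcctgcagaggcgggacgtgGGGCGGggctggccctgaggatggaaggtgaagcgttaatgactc
Tank, upstream start: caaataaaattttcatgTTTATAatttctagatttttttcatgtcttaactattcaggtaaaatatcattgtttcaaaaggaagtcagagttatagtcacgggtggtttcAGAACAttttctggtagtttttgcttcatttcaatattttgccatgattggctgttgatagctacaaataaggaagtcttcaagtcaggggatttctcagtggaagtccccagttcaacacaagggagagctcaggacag

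The promoters of the most alike pair of the 4 genes, Samsn1 and Ptp4a1, had little in common in base composition. Samsn1 had 38.4% G and C with 3 CpG dinucleotides, and Ptp4a1 had 71.2% with 37, where the median over 32817 mouse promoter windows was 52.4% with 6. The Samsn1 window held the PU.1 type ETS motif GAGGAAG at positions -50 and -29 from the start, once on each strand, and 10.6% of all windows held this motif. The Ptp4a1 window held the TATA box TATAAA at -32, a motif in 12.4% of windows. It also held TGACG, the core of the cAMP response element, at -116 and -14 (17.7% of windows) and the GC box GGGCGG at -247 and -25 (32.7% of windows). At the downstream Tank start the GC box was found at -90, -76 and -45 and the C/EBP motif TTGCNNAA at -209 (9.57% of windows). The upstream Tank window held the glucocorticoid receptor hexamer AGAACA at -140 (16.1% of windows) and a TATA box at -233. None of the 4 windows shown held the full cAMP response element TGACGTCA (1.55% of windows), the NF-kB motif (0.357%), the AP-1 motif TGANTCA (6.75%), the E box CACGTG (6.02%) or the glucocorticoid receptor palindrome (0.00914%). The Tank start not shown that lies after the downstream one does hold an AP-1 match, at -61. A match is a string of letters and not a bound site.

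Libraries held 11.34 to 16.96 megafragments assigned to genes. Expression is given as FPKM, fragments scaled to the exon length of a gene and to the size of the library, which allows levels of different genes to be compared per length. Leukocyte RNA was present in every library, with 5 leukocyte marker genes summing to 826 to 1120 FPKM. Erythroid markers summed to 5430 to 39000 FPKM in marrow and to 1820 to 23200 FPKM in spleen. These sums do not show how pure the CD45+ cells were. Neutrophil markers summed to 46600 to 65000 FPKM in marrow and to 1790 to 5450 FPKM in spleen. Haemoglobin transcripts made up 0.133 to 2.84% of fragments, and in hM3Dq marrow they made up 0.564% in replicate 5 and 0.391% in replicate 6 but 2.27% and 2.38% in replicates 7 and 8. In bulk samples fewer cells of a type and less RNA per cell cannot be told apart.

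Samsn1 had the highest mean FPKM of the 4 genes in every group. In marrow of hM3Dq mice it was at 30.7, 46.1, 28.7 and 30.8 FPKM in replicates 5 to 8, and in marrow of mCherry mice at 12.6, 15.8, 14.5 and 14.9 FPKM in replicates 1 to 4. Every hM3Dq marrow library was above every mCherry marrow library, and replicate 6 stood above the other three. Such a separation, with hM3Dq higher, was found for 12.2% of the genes tested in marrow and, since this contrast chose the genes, is a description. In spleen the values were 11.9, 9.45, 10.1 and 10.4 FPKM with hM3Dq and 10.5, 12.3, 10.2 and 9.96 FPKM with mCherry, and these groups overlapped. The means were 34.1 ± 8.09 and 14.5 ± 1.36 FPKM in marrow (SD, n = 4), a ratio of 2.36. They were 10.5 ± 1.03 and 10.7 ± 1.06 FPKM in spleen, a ratio of 0.976. On the scale of log2(scaled FPKM + 0.1), the hM3Dq difference was 1.14 ± 0.14 (SE) in marrow and -0.06 ± 0.11 in spleen, and the marrow effect exceeded the spleen effect by 1.20 ± 0.18. Without the high marrow replicate 6, the marrow difference was 0.99. The order of levels was marrow hM3Dq, marrow mCherry, then spleen mCherry and spleen hM3Dq, with the spleen groups within each other's spread.

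Ptp4a1 was higher with hM3Dq in marrow and, by less, in spleen. It was at 11.1, 16.4, 11.7 and 12.0 FPKM in the hM3Dq marrow libraries and at 4.87, 4.24, 4.73 and 5.05 FPKM in the mCherry marrow libraries. The groups did not overlap, and replicate 6 was again the highest. In spleen it was at 4.59, 4.83, 4.48 and 5.28 FPKM with hM3Dq and at 3.54, 3.85, 4.03 and 4.14 FPKM with mCherry, so here too every hM3Dq library was above every mCherry library. The means were 12.8 ± 2.44 against 4.72 ± 0.348 FPKM in marrow (SD, n = 4), a ratio of 2.72, and 4.80 ± 0.355 against 3.89 ± 0.263 FPKM in spleen, a ratio of 1.23. The log2 differences were 1.34 ± 0.14 (SE) in marrow, 1.22 without replicate 6, and 0.27 ± 0.10 in spleen, and the difference between the tissues was 1.07 ± 0.16. Marrow hM3Dq was the highest group and spleen mCherry the lowest. Marrow mCherry and spleen hM3Dq overlapped, at means of 4.72 and 4.80 FPKM, and their order turned over after composition scaling, with centred log2 means of -0.12 and -0.41. Within single libraries Samsn1 was 2.45 to 2.81 times Ptp4a1 in hM3Dq marrow and 2.58 to 3.73 times in mCherry marrow. In spleen this ratio ran from 1.95 to 2.59 with hM3Dq and from 2.40 to 3.19 with mCherry.

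Pla2g3 was near the floor of detection, with a mean level above that of 5.56% of the genes tested. It was at 0.534, 0.476, 0.487 and 0.540 FPKM in hM3Dq marrow, from 34, 31, 33 and 33 fragments. In mCherry marrow it was at 0.188, 0.195, 0.238 and 0.101 FPKM, from 14, 13, 14 and 7 fragments. All 4 hM3Dq marrow libraries were above all mCherry marrow libraries, and they were closer to each other than those of any other gene of the 4. With 31 to 34 fragments in each, counting error is large, so nothing is read from this closeness. In spleen the hM3Dq libraries were at 0.0982, 0.131, 0.117 and 0.130 FPKM, from 6 to 10 fragments, and the mCherry libraries at 0.159, 0.170, 0.151 and 0.162 FPKM, from 10 to 13 fragments. Here the order was the opposite one, every hM3Dq library lying below every mCherry library in FPKM, though the fragment numbers of the groups met at 10. The ratio of means was 2.83 in marrow (0.509 ± 0.0322 against 0.180 ± 0.0574 FPKM, SD, n = 4) and 0.744 in spleen (0.119 ± 0.0154 against 0.160 ± 0.00784 FPKM). The log2 differences were 1.09 ± 0.19 (SE) in marrow and -0.26 ± 0.14 in spleen, with 1.37 ± 0.22 between them. At this level the added 0.1 holds the log2 values down, and with 0.01 in its place the marrow difference was 1.44 and with 1 it was 0.34. Of the low-value filter of 10 fragments in at least 4 libraries, Pla2g3 met the mark in 7 of 8 marrow libraries and in 5 of 8 spleen libraries, 4 of the 5 being mCherry. The order of means was marrow hM3Dq, marrow mCherry, spleen mCherry and spleen hM3Dq, where marrow mCherry overlapped both spleen groups and marrow hM3Dq overlapped no other group.

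The end of Pla2g3 runs into Inpp5j (ENSMUSG00000034570, an inositol polyphosphate phosphatase gene) on the opposite strand at chr11:3494375-3504821. Of 4696 exon bases annotated for Pla2g3, 1254 (26.7%) lie within Inpp5j and 401 lie in its exons. The strand setting of the counting is not given in the sources used here, so reads of both genes cannot be told apart in this stretch. Inpp5j was at 1.97 to 3.16 FPKM in hM3Dq marrow and 1.49 to 2.49 FPKM in mCherry marrow, groups that overlapped, and at 0.185 to 0.492 FPKM in spleen. Its hM3Dq difference was 0.28 ± 0.20 on the log2 scale in marrow (limma, adjusted p = 0.439) and -0.15 ± 0.32 in spleen (adjusted p = 0.803). How many Pla2g3 fragments come from Inpp5j was not tested. The Samsn1 antisense transcript Gm15555 was listed at 0 in every library.

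Tank stood apart from the other three, since its tissue difference was made as much by lower values in spleen as by higher values in marrow. It was at 11.1, 10.3, 8.01 and 8.94 FPKM in hM3Dq marrow and at 6.94, 7.28, 6.88 and 7.55 FPKM in mCherry marrow. The groups did not overlap, and the highest hM3Dq values were those of replicates 5 and 6, the libraries with the least haemoglobin RNA. In spleen Tank was at 8.01, 8.30, 7.31 and 7.33 FPKM with hM3Dq and at 10.2, 9.59, 9.0 and 9.79 FPKM with mCherry, every hM3Dq library being below every mCherry library. The ratio of means was 1.34 in marrow (9.58 ± 1.36 against 7.16 ± 0.313 FPKM, SD, n = 4) and 0.802 in spleen (7.74 ± 0.497 against 9.64 ± 0.497 FPKM). The log2 differences were 0.33 ± 0.10 (SE) and -0.34 ± 0.06, and the tissue difference was 0.68 ± 0.11. The marrow difference was 0.24 when the haemoglobin share entered the fit. The 4 group means of Tank lay within a narrow band, spleen mCherry and marrow hM3Dq being the upper pair and spleen hM3Dq and marrow mCherry the lower pair. In each pair the groups overlapped in FPKM, and marrow hM3Dq also overlapped spleen hM3Dq. After composition scaling the centred log2 means ran from 0.26 in marrow hM3Dq and 0.08 in spleen mCherry to -0.07 in marrow mCherry and -0.27 in spleen hM3Dq. The working label of genes induced in marrow thus describes Samsn1, Ptp4a1 and Pla2g3 better than Tank.

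**Figure D1:**
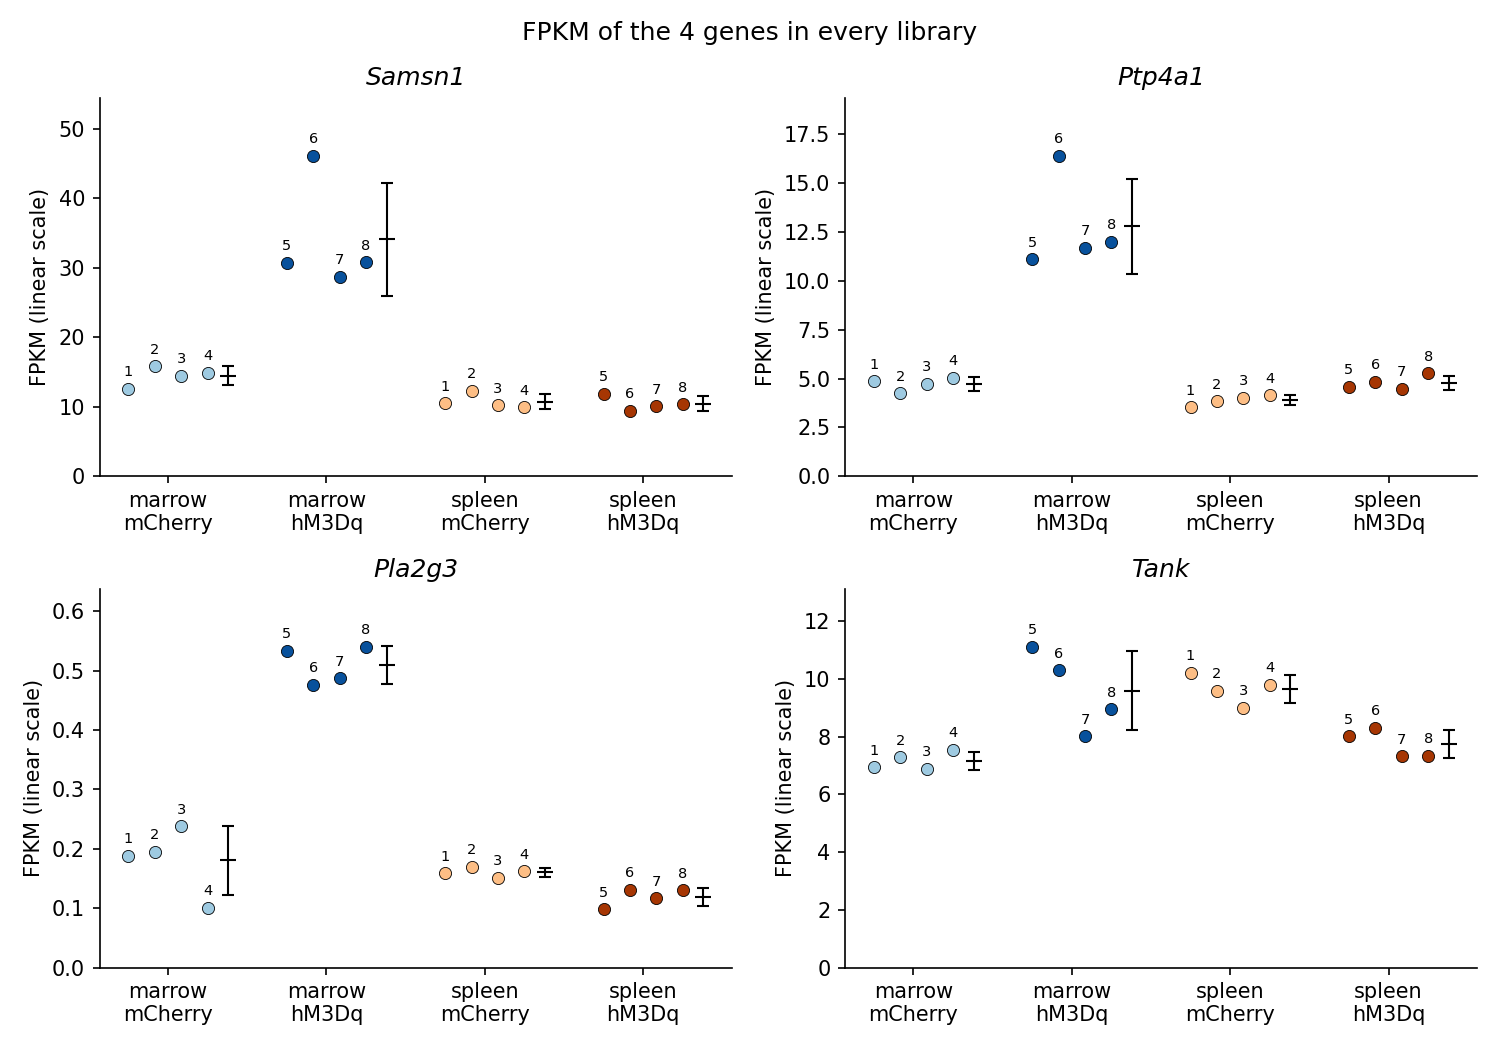
FPKM of Samsn1, Ptp4a1, Pla2g3 and Tank in each of the 16 libraries (points, numbered by replicate), with the mean and SD of each group (bars, n = 4), on linear axes that start at 0. In marrow every hM3Dq library lies above every mCherry library for each gene, as for 12.2% of all genes. The genes were chosen on their response, so this is a description. In spleen Ptp4a1 is higher with hM3Dq, as for 9.35% of all genes, and Pla2g3 and Tank are lower, as for 8.93%. The spleen fragment numbers of Pla2g3 meet at 10, so its direction there is uncertain.

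Counts of genes give the scale for these values. In marrow 4.85% of 16094 genes passed an adjusted p of 0.05 for hM3Dq against mCherry, 3.15% higher and 1.7% lower. In spleen 8.02% of 17075 genes passed, 3.54% higher and 4.49% lower. FPKM ranges of the groups did not overlap, with hM3Dq lower, for 3.82% of genes in marrow, and in spleen they were apart for 9.35% with hM3Dq higher and 8.93% with hM3Dq lower. For the difference of the effects between tissues, 0.1% of 17986 genes passed, 0.0389% with the larger effect in marrow and 0.0612% with the larger effect in spleen. Ordered by that difference, from the largest in favour of marrow, Pla2g3 was at rank 87, Samsn1 at 137, Ptp4a1 at 197 and Tank at 765, which is where they were chosen to be.

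Averaged over virus, the level in marrow less that in spleen was 1.31 ± 0.09 (SE) on the log2 scale for Samsn1, 1.09 ± 0.08 for Ptp4a1 and 0.95 ± 0.11 for Pla2g3. For Tank it was 0.20 ± 0.05, and -0.06 without composition scaling, which moved the median of all genes to -0.26, so its direction depends on the scaling. These averages hold the hM3Dq marrow values behind the choice of the genes and are given as a description. Of all genes, 78.1% passed an adjusted p of 0.05 for this contrast, 38.9% higher in marrow and 39.2% lower, and nothing is read from it about the 4 genes. Ratios of mean FPKM between marrow and spleen were taken without composition scaling, so they are not on the scale of these averages. In mCherry mice alone the ratio was 1.35 for Samsn1, 1.21 for Ptp4a1, 1.12 for Pla2g3 and 0.743 for Tank. In hM3Dq mice it was 3.26, 2.67, 4.27 and 1.24 in the same order of genes. After composition scaling, the centred log2 means of mCherry marrow and mCherry spleen were 0.09 and -0.62 for Samsn1 and -0.12 and -0.67 for Ptp4a1. They were -0.08 and -0.34 for Pla2g3 and -0.07 and 0.08 for Tank.

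Neither close relative of Samsn1 passed the test. Sash1 and Sash3 encode the other adaptors of its SLY family. Sash1 had a log2 hM3Dq difference of -0.26 ± 0.22 in marrow (limma, adjusted p = 0.514) and -0.77 ± 0.29 in spleen (adjusted p = 0.133). Sash3, the lymphocyte member, was at -0.04 ± 0.08 and -0.06 ± 0.07 (adjusted p = 0.820 and 0.626). Among 18 other genes that restrain antigen receptor signalling, 3 rose in marrow (16.7%, against 3.15% of all genes) and none fell, with a median log2 difference of 0.28 against 0.00 over all genes tested. In spleen 3 rose (16.7%, against 3.54%), with a median of 0.01 against -0.01. There 1 gene fell (5.56%), which is close to the 4.49% of all genes that fell. This and the other gene lists were chosen with earlier results of these data known, so their shares and medians are a description. Ptpn22, a phosphatase acting on Src family kinases, rose in both tissues, by 0.74 ± 0.10 in marrow and 1.68 ± 0.15 in spleen (limma, adjusted p = 0.00624 and 0.00171). Cblb, a ubiquitin ligase, rose in marrow by 0.96 ± 0.13 (limma, adjusted p = 0.00624) and was at 0.52 ± 0.17 in spleen (adjusted p = 0.0868). The lipid phosphatase gene Inpp5d rose by 0.37 ± 0.08 in marrow and 0.75 ± 0.15 in spleen (limma, adjusted p = 0.0330 and 0.0246), but with 1 library left out the adjusted p reached 0.103 in marrow and 0.0742 in spleen. The Inpp5d call held in marrow without hM3Dq replicate 8 and ended without any other library, and in spleen it ended without hM3Dq replicate 8 or any mCherry replicate. It also ended in both tissues without a low-value filter (adjusted p = 0.0563 and 0.0567), and in marrow with haemoglobin in the fit (0.0570) or in one fit of all 16 libraries (0.0677). The inhibitory Fc receptor gene Fcgr2b rose in spleen by 0.43 ± 0.08 (limma, adjusted p = 0.0192, but 0.0548 to 0.0627 without hM3Dq replicate 8, mCherry replicate 1 or mCherry replicate 3). The gene that fell in spleen was Cd22, an inhibitory lectin of B cells, by 0.46 on the log2 scale (limma, adjusted p = 0.0464, but 0.0682 to 0.126 without any library other than hM3Dq replicate 5), and it was named after its value was seen. The Cd22 call also ended without a filter (adjusted p = 0.0932), with an FPKM filter of 1 (0.0536), with haemoglobin in the fit (0.0627) and in one fit of all 16 libraries (0.0518). Summed B cell markers were also lower in hM3Dq spleen, at 1210 to 1370 FPKM against 1400 to 1750 FPKM, and their part in this was not tested.

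The relatives and partners of Ptp4a1 gave no call in either tissue. Of 13 genes of the PTP4A and CNNM group and of magnesium transport, 11 were tested in marrow and 12 in spleen, with medians of 0.23 and -0.08 on the log2 scale and no gene past the threshold. Since only 4.85% of all genes passed in marrow and 8.02% in spleen, nothing is read from the lack of calls in so short a list. Ptp4a2 (PRL-2) was at 0.27 ± 0.09 in marrow and 0.12 ± 0.06 in spleen (limma, adjusted p = 0.133 and 0.246). Ptp4a3 (PRL-3) was at -0.23 ± 0.22 and -0.63 ± 0.17 (adjusted p = 0.572 and 0.0589). Arl15, a small GTPase that binds CNNM proteins, had the highest marrow value of the list at 0.59 ± 0.18 (adjusted p = 0.0991).

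Other phospholipases A2 that changed went down. Of 19 genes of this enzyme group and its receptor, 9 could be tested in each tissue, 2 fell in each (22.2%, against 1.7% of all genes in marrow and 4.49% in spleen) and none rose. The medians were -0.08 in marrow and -0.37 in spleen on the log2 scale. Pla2g2d, a secreted enzyme of lymphoid tissue dendritic cells and macrophages, fell by 1.40 in marrow and by 0.72 in spleen (SE 0.27 and 0.15, limma, adjusted p = 0.0221 and 0.0237). Pla2g15, the lysosomal enzyme, fell by 0.60 and by 0.75 (SE 0.11 and 0.18, limma, adjusted p = 0.0198 and 0.0395). The Pla2g2d call ended in marrow without mCherry replicate 1 or 2 (adjusted p up to 0.0599) and in spleen without hM3Dq replicate 6 or 8 or any mCherry replicate (up to 0.0624). The Pla2g15 call ended in marrow without hM3Dq replicate 6 or mCherry replicate 2 or 4 (adjusted p up to 0.0649) and in spleen without any library other than hM3Dq replicate 5 (up to 0.101). Without a filter both spleen calls ended (adjusted p = 0.0536 for Pla2g2d and 0.0832 for Pla2g15), as did the marrow call of Pla2g2d (0.0843). With haemoglobin in the fit the marrow call of Pla2g2d (0.0622) and the spleen call of Pla2g15 (0.0654) ended, and in one fit of all 16 libraries the spleen call of Pla2g2d (0.0707). Pla2g12a, another secreted enzyme, was at -0.02 ± 0.19 and -0.21 ± 0.17, and Pla2g4a, the cytosolic enzyme of eicosanoid synthesis, at -0.30 ± 0.17 and -0.60 ± 0.28, with no call. Pla2g2f and Pla2g12b were listed at 0 in every library. Of 22 enzymes and receptors of eicosanoid metabolism, 20 were tested in marrow and 19 in spleen and none passed. With 4.85% of all genes passing in marrow and 8.02% in spleen, this says little about the list. Markers of mast cells and basophils summed to 342 to 465 FPKM in hM3Dq marrow and 278 to 428 FPKM in mCherry marrow, which overlapped, whereas in spleen they summed to 41.2 to 50.0 FPKM with hM3Dq and 24.0 to 36.8 FPKM with mCherry. The mast cell genes Tpsab1 and Mrgprb2 were listed at 0 in every marrow library and every hM3Dq spleen library. In mCherry spleen each was above 0 in 1 library, Tpsab1 at 0.0845 FPKM and Mrgprb2 at 0.0295 FPKM. Another mast cell gene of the list, Cma1, could be tested in spleen and was at -0.04 ± 0.15 (limma, adjusted p = 0.891). Of 8 markers tested in spleen, 6 had log2 differences above 0. Hdc was the 1 called, at 1.47 ± 0.24 (limma, adjusted p = 0.0129), and Gata2 was the lowest, at -0.41 ± 0.14 (adjusted p = 0.105). The spleen sum was thus higher with hM3Dq where Pla2g3 was lower, and the part of these cells in the Pla2g3 values was not tested.

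Among 27 kinases, adaptors and TRAF proteins around TANK, 1 rose in marrow and 3 fell in spleen, with medians of -0.06 on the log2 scale in both tissues. The 3.70% that rose in marrow is close to the 3.15% of all genes, and 11.1% fell in spleen against 4.49% of all genes. The gene that rose was Tbk1, the kinase TANK carries, by 0.41 ± 0.08 in marrow (limma, adjusted p = 0.0267), and it was at 0.27 ± 0.09 in spleen (adjusted p = 0.102). The Tbk1 call ended in 7 of 8 fits that left out 1 marrow library, with an adjusted p of up to 0.0795, and held without hM3Dq replicate 7 (adjusted p = 0.0309). It also ended with haemoglobin in the fit (adjusted p = 0.0568). Traf3, a ubiquitin ligase adaptor that binds TANK, fell by 0.36 in spleen (SE 0.07, limma, adjusted p = 0.0178) and was at 0.25 ± 0.11 in marrow (adjusted p = 0.205). Its difference between tissues, 0.62 ± 0.12, was close to that of Tank and did not pass (limma, adjusted p = 0.0750). The Traf3 call in spleen ended without hM3Dq replicate 8 (adjusted p = 0.0561) and without mCherry replicate 3 (adjusted p = 0.0537). Traf1 fell in spleen by 0.55 (SE 0.10, limma, adjusted p = 0.0146, but 0.0510 without hM3Dq replicate 8). Irf7, a transcription factor of the interferon response, fell in spleen by 0.66 (SE 0.13, limma, adjusted p = 0.0199, but 0.0519 to 0.0617 without hM3Dq replicate 7 or 8 or mCherry replicate 1, 3 or 4) and was at -0.71 ± 0.19 in marrow (adjusted p = 0.0677). The second kinase, Ikbke, was at -0.07 ± 0.10 and -0.22 ± 0.09, and the sister adaptors Azi2 and Tbkbp1 were between -0.32 and 0.25, with no call in either tissue.

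**Figure D2:**
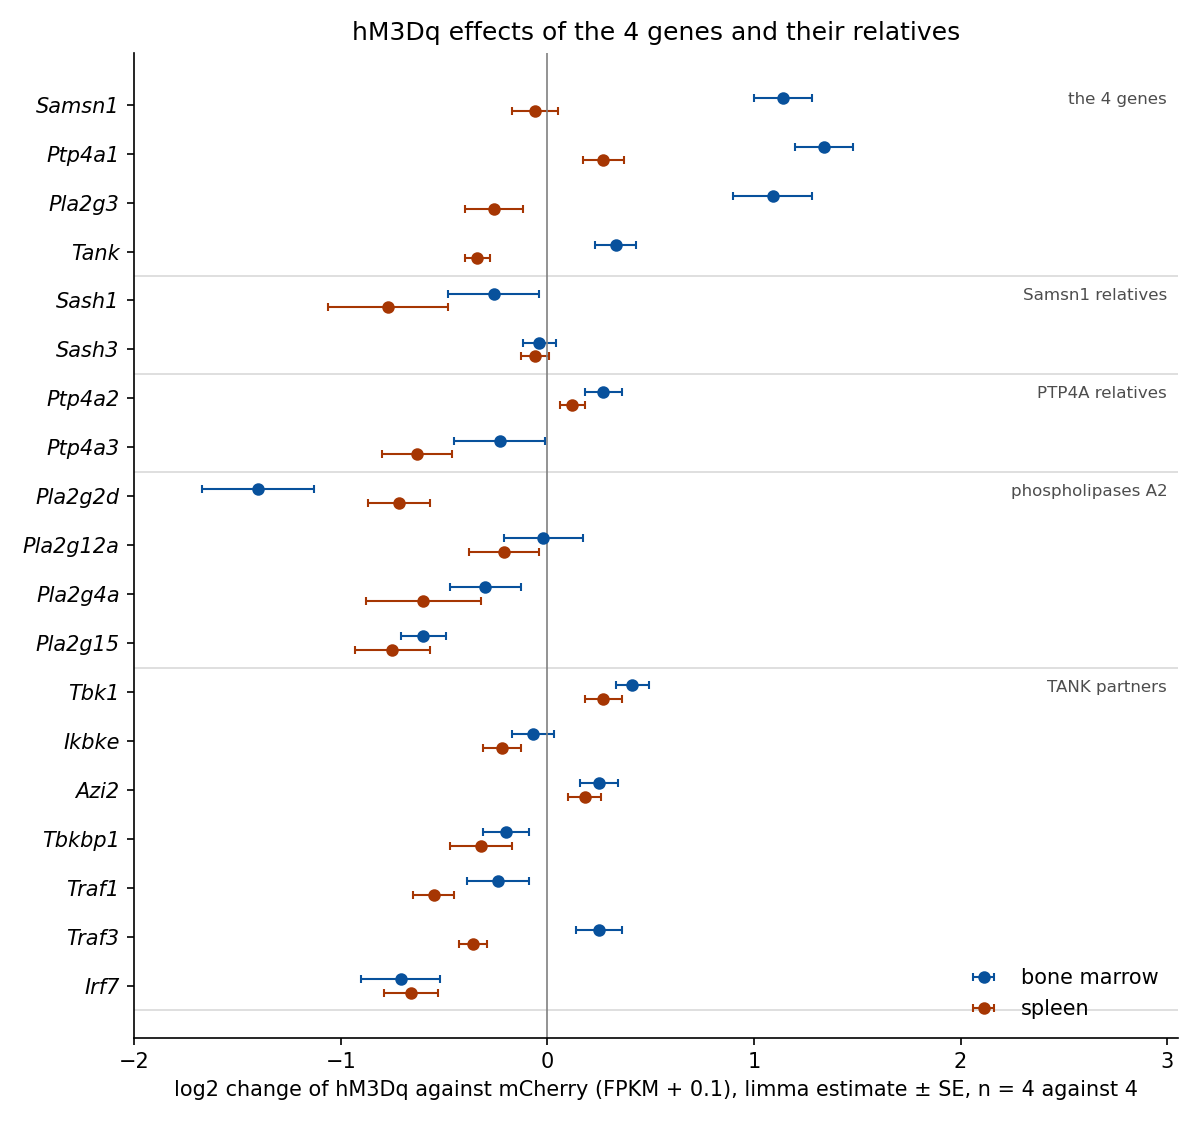
Log2 difference of hM3Dq against mCherry (limma estimate with SE, 4 libraries against 4) in bone marrow (blue) and spleen (brown) for the 4 genes and their relatives. Samsn1, Ptp4a1 and Pla2g3 lie above 1 in marrow, while the relatives lie between -1.40 for Pla2g2d and 0.41 for Tbk1.

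Likeness of profile was measured as the root mean square (RMS) difference between log2 profiles over 16 libraries, each centred on its own mean, among 13393 other genes. It includes the contrast that chose the 4 genes. Samsn1 was most like Ptp4a1, at an RMS difference of 0.234 where the median gene was at 0.834. It was followed by the RNA-binding protein gene Rbm47 at 0.239 and the anthrax toxin receptor gene Antxr2 at 0.243. Ptp4a1 was most like Il1rap, the accessory chain of the interleukin-1 receptor, at 0.191, then like the alpha-arrestin gene Arrdc4 at 0.196 (median 0.809). Pla2g3 was most like Ralgps1, an exchange factor for Ral GTPases, at 0.228, the glycosyltransferase gene B3gnt9 at 0.264 and Gpr137c at 0.276 (median 0.726). Tank was most like 3 genes of ubiquitin and NEDD8 transfer, Rnf19b at 0.123, Ube2e1 at 0.128 and Dcun1d5 at 0.131, but its median was 0.442, since its profile is flat. Between the 4 genes, the Pla2g3 profile was at 0.319 from Samsn1 and 0.312 from Ptp4a1, and the Tank profile at 0.508 to 0.655 from the other three.

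The hM3Dq differences of the alike genes are a description too, since these genes were picked for profiles that contain that contrast. In marrow the log2 difference was 1.47 ± 0.20 (SE) for Il1rap, 1.23 ± 0.22 for Antxr2, 0.93 ± 0.16 for Arrdc4 and 0.84 ± 0.12 for Rbm47. In spleen the same genes were at 0.56 ± 0.12, 0.21 ± 0.12, 0.47 ± 0.12 and 0.32 ± 0.13. Ralgps1, B3gnt9 and Gpr137c, the genes most like Pla2g3, were at 0.80 ± 0.14, 0.75 ± 0.14 and 0.88 ± 0.22 in marrow and at -0.04 ± 0.12, 0.03 ± 0.15 and -0.34 ± 0.13 in spleen. Of these, Gpr137c had the sign pattern of Pla2g3 in both tissues. The 3 genes most like Tank had log2 values of 0.12 to 0.21 in marrow and -0.16 to -0.12 in spleen.

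**Figure D3:**
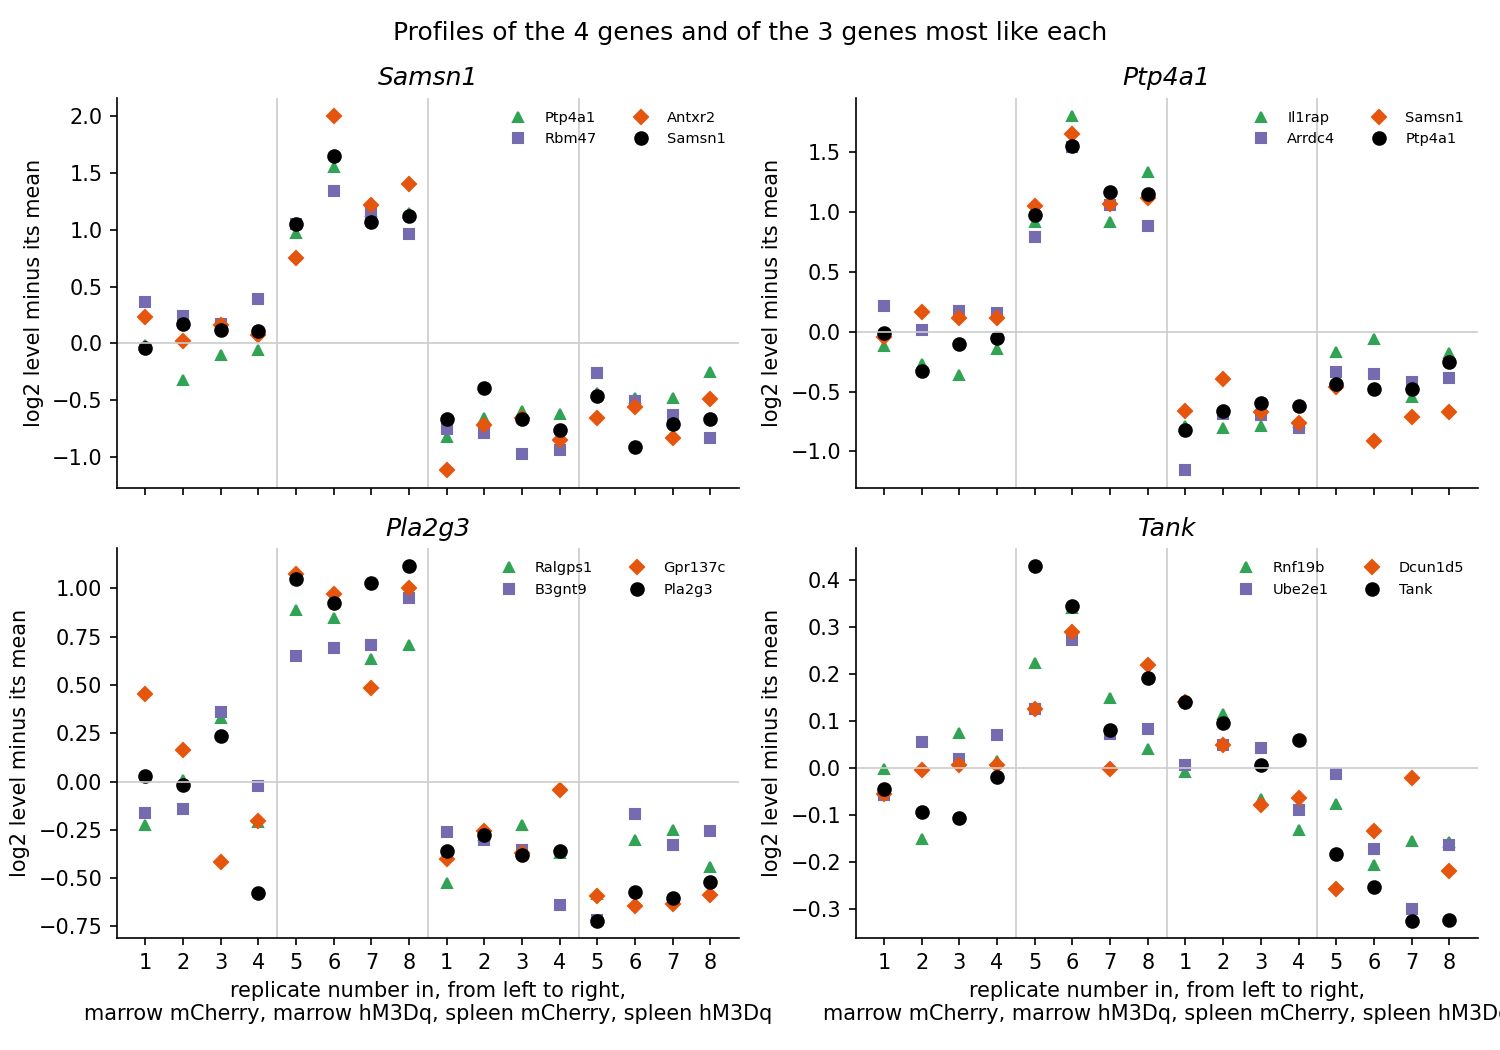
Log2 level minus its mean over 16 libraries for each of the 4 genes (black circles) and the 3 genes most like it (coloured symbols), with libraries in 4 blocks by group and axes that differ between panels. The profiles of Samsn1 and Ptp4a1 peak together in hM3Dq marrow replicate 6, and the Tank panel spans less than 1 log2 unit.

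None of the 7 adjacent protein-coding genes that could be tested passed in marrow, where 4.85% of all genes passed, so this says little about the neighbours. Hspa13 lies 91.7 kb from Samsn1 and Nrip1 265.1 kb from it on the other side. Their marrow log2 differences were -0.46 ± 0.16 and 0.08 ± 0.16 (limma, adjusted p = 0.128 and 0.811), though Nrip1, a nuclear receptor corepressor, rose in spleen by 0.58 ± 0.11 (limma, adjusted p = 0.0215, but 0.0557 to 0.0664 without hM3Dq replicate 8, mCherry replicate 1 or mCherry replicate 4). Phf3, 66.4 kb from Ptp4a1, was at 0.42 ± 0.11 in marrow (adjusted p = 0.0633), and the gene on the other side, 4931428L18Rik, was too low to test. Rnf185 and Selenom beside Pla2g3 were at 0.32 ± 0.12 and -0.09 ± 0.15 in marrow (adjusted p = 0.141 and 0.742). Rbms1 and Psmd14 beside Tank were at 0.12 ± 0.09 and -0.14 ± 0.08 (adjusted p = 0.448 and 0.330).

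Most genes of a glucocorticoid-induced list rose in both tissues. Of its 25 genes, 16 rose in marrow and 16 in spleen (64.0% each, against 3.15% and 3.54% of all genes), and none fell. The median log2 differences were 1.26 and 1.32. The list was chosen with earlier results of these data known, so its shares and medians are a description and no independent evidence. Of the list, 1 member differed between tissues, Cxcr4, a chemokine receptor that holds leukocytes in marrow, named here after its value was seen. It was at 0.35 ± 0.09 in marrow (limma, adjusted p = 0.0651) and rose by 1.54 ± 0.10 in spleen (adjusted p = 0.000342), a difference of -1.18 ± 0.13 (adjusted p = 0.00237) in the direction opposite to the 4 genes. Fkbp5, a co-chaperone of the glucocorticoid receptor, rose by 2.32 ± 0.08 in marrow and 2.87 ± 0.10 in spleen (limma, adjusted p = 1.97e-06 and 8.55e-06). The Fkbp5 difference between tissues was -0.54 ± 0.12 (limma, adjusted p = 0.105). Ddit4, an inhibitor of mTORC1, rose by 3.06 ± 0.14 and 2.26 ± 0.17 (limma, adjusted p = 1.59e-05 and 0.000783), with a difference of 0.80 ± 0.23 (adjusted p = 0.223). The marrow differences of Samsn1 and Pla2g3 were below the marrow median of this list and that of Ptp4a1, 1.34, was above it. With 0.01 added in place of 0.1 the Pla2g3 marrow difference was 1.44, and with 1 it was 0.34. Its place against the median is therefore uncertain. The spleen differences of all 4 genes were below the spleen median.

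**Figure D4:**
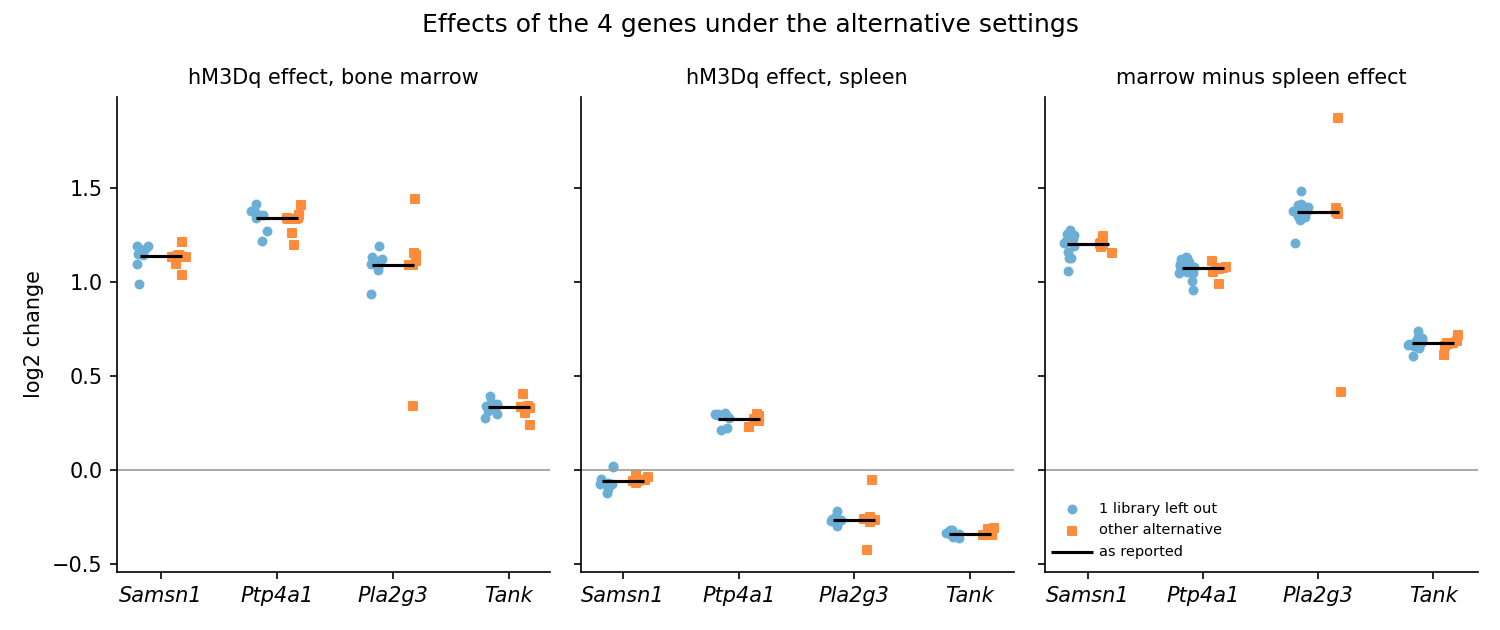
Log2 hM3Dq effects of the 4 genes in marrow, in spleen and as the difference between tissues, as reported (black lines), with 1 library left out (blue circles) and under the other alternatives (orange squares). Pla2g3 moves with the pseudocount, its tissue difference running from 0.41 to 1.87, and the marrow effect of Tank falls from 0.33 to 0.24 with the haemoglobin covariate.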

How the data were processed

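The deposited values are FPKM per gene, 1 file for each of 16 libraries. Per the submitters' processing notes, CASAVA 1.9, STAR 2.6.1a, featureCounts and edgeR 3.28.1 were used with build GRCm38. For the annotation release, the sources used here give nothing. Symbols and exon lengths came from GENCODE M21 (99.5% of IDs matched). From the deposited FPKM, fragments were recovered as whole numbers within 0.01 for 27922 of 31954 detected genes with these lengths and for 4031 more with a searched length, Samsn1 and Ptp4a1 among the latter.

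Each library was scaled by a TMM factor, trimming 30% of ratios and 5% of levels, and analysed as log2(value + 0.1) with limma 3.58.1 in R 4.3.3, using a mean trend, for genes with 10 or more fragments in at least 4 libraries, with Benjamini-Hochberg adjustment over all genes tested and a threshold of 0.05. Fold changes on this scale understate changes of low genes. The procedure was tested on simulated data. The simulated counts had a fixed spread and no effects shared by the genes of a library, so they do not measure its error rate on these libraries. Named genes were the 4 genes, their nearest relatives, up to 4 other called genes per list, the 3 most alike genes and the adjacent coding genes. The 4 genes and the lists were chosen with earlier results of these data known. Alternatives were other scalings, pseudocounts and filters, a haemoglobin covariate, a replicate block and leaving out each library.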

Additional observations from a re-analysis of the deposited data

Results flagged for a closer look

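In hM3Dq marrow, replicate 6 was far from the other three for Samsn1, at 46.1 FPKM, and for Ptp4a1, at 16.4 FPKM. In 16 groups examined, 2 such values were found, and chance gives about 1 in 20. Both came from the same library in genes of alike profile, so they are not independent of each other. Rbm47, Antxr2, Il1rap and Arrdc4, picked for their likeness to these genes, were also highest in replicate 6. Replicate 6 had the lowest haemoglobin share of the marrow libraries, 0.391%, and the part of this in its values was not tested.

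With hM3Dq, Pla2g3 and Tank were higher in marrow and lower in spleen, with no overlap of FPKM in either tissue. Of all genes, 12.2% were apart in this way in marrow and 8.93% in spleen. For Pla2g3 the spleen values came from 6 to 10 fragments with hM3Dq and 10 to 13 with mCherry. These fragment numbers meet at 10, so its direction in spleen is uncertain. The marrow effect exceeded the spleen effect by 1.37 for Pla2g3 and by 0.68 for Tank on the log2 scale. These differences were not tested, since the genes were chosen on them.

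The hM3Dq effect on Cxcr4 differed between tissues in the other direction, by -1.18 ± 0.13 on the log2 scale (limma, adjusted p = 0.00237). The limma adjusted p ran from 0.00151 to 0.0105 with 1 library left out and from 0.00139 to 0.0464 under the other settings. The gene rose in spleen, and every hM3Dq library was above every mCherry library in both tissues, as for 12.2% of all genes in marrow and 9.35% in spleen.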

How the results depend on the processing

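Among the hM3Dq effects of the 4 genes, those that moved by more than the replicate spread were of Pla2g3 with the pseudocount and of Tank with the haemoglobin covariate. For Pla2g3 the marrow difference was 0.34 with pseudocount 1 and 1.44 with 0.01, the spleen difference was -0.055 with 1, and the tissue difference was 0.41 and 1.87. For Tank the marrow difference was 0.24 with the covariate. The marrow against spleen averages of the other members moved too. Over the settings other than leaving out a library, they ran from 1.05 to 1.32 for Samsn1 and from 0.83 to 1.10 for Ptp4a1. For Pla2g3 they ran from 0.27 to 1.31. Without composition scaling the marrow against spleen values turned to -0.0637 for Tank, -0.0898 for Rnf19b, -0.0989 for Ube2e1 and -0.11 for Dcun1d5. An FPKM filter of 1 left no value for Pla2g3. With 1 library left out, the marrow effects ran from 0.99 to 1.19 for Samsn1, 1.22 to 1.41 for Ptp4a1, 0.93 to 1.19 for Pla2g3 and 0.27 to 0.40 for Tank. The tissue differences ran from 1.06 to 1.28, 0.96 to 1.13, 1.21 to 1.48 and 0.60 to 0.74. The spleen effect of Samsn1, near 0, ran from -0.13 to 0.02.

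Genes called for hM3Dq in marrow were 781, and 314 without a filter, 497 with the covariate and 1615 in one fit of all 16 libraries. Without composition scaling the split of 507 higher and 274 lower became 640 and 158. Leaving out 1 library gave 279 to 714 calls, being 337 (hM3Dq replicate 6), 478 (hM3Dq replicate 8), 471, 279 and 314 (mCherry replicates 1, 2 and 4). In spleen the 1370 calls became 606 without a filter and 427 to 1730 with 1 library left out, being 866 (hM3Dq replicate 6), 713 (7) and 427 (8), and 480, 731, 618 and 561 in the order of mCherry replicates 1 to 4. The 18 calls for the tissue difference became 11 without scaling, 81 with pseudocount 1, 31 with the covariate and 3 to 36 with 1 library left out, above 18 without marrow mCherry replicate 3 (33) and spleen hM3Dq replicate 5 (36) and below it otherwise. For marrow against spleen, 13651 to 13922 genes passed with 1 library left out, and without scaling the 6995 higher and 7059 lower became 5062 and 9137.

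Same-numbered marrow and spleen libraries had correlations of their deviations from 0.002 to 0.475, over 0.1 in 4 of 8 pairs. Libraries of unlike number and the same virus had correlations from -0.427 to 0.223. Replicates 6, 7 and 8 of hM3Dq, at 0.475, 0.377 and 0.245, were above all of these, and the other same-numbered pairs were not. Whether equal numbers mean the same mouse is not stated, so the SEs of the tissue difference treat the libraries as unpaired. With the replicate block the tissue difference gave 9 calls (1 higher, 8 lower). Depth limits Pla2g3, whose libraries held 6 to 34 fragments. Counting error alone is then large, and PCR copies are not independent molecules.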
